A study of Homo sapiens with 24 samples.

Results

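The mature arms of the MIR224 and MIR452 hairpins, which lie in an intron of *GABRE*, were described across adherent and spheroid OV90 cells with and without silencing of *RELA* or *RELB*. The members were chosen by name: hsa-miR-224-5p, hsa-miR-224-3p, hsa-miR-452-5p and hsa-miR-452-3p are 4 of the 2656 mature miRNAs in the table of counts. Of the 4, 3 had a count in at least 1 library, and the 2 5p arms were abundant enough to be tested. OV90 is an established epithelial ovarian cancer cell line, and its 24 miR-seq libraries fell into 6 groups of 4 replicates: shNeg cells (negative control shRNA, called wildtype in the labels), shRELA cells (shRNA against *RELA*) and shRELB cells (shRNA against *RELB*), all of them grown both adherently and as spheroids. All groups, shNeg included, received 1 µg/ml doxycycline for 72 h. Adherent cells grew in medium with fetal calf serum, and spheroids, which the study used as its culture enriched in tumor-initiating cells (TICs), grew in ultra-low attachment plates in serum-replaced medium with growth factors, so that attachment and medium cannot be told apart. The sources used here do not say whether the shRNA cells were 1 clone or whether replicates were separate cultures, so p-values measure only the spread between these samples, which may be technical. Neither mRNA is covered by small RNA reads, so how far *RELA* or *RELB* was silenced could not be checked in these libraries. The study reported the knockdown of both in OV90 cells by Western blot.

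A miRNA hairpin is cut from a longer transcript and then trimmed to a short duplex, of which 1 arm, the guide, is usually kept in the Argonaute complex while the other is mostly degraded. The guide pairs with target mRNAs through its seed, the bases near its 5′ end. *GABRE* encodes the epsilon subunit of the GABA-A receptor, and miR-224 and miR-452 are often described together in epithelial cancers because they share this host gene. RELA is the main subunit of the canonical NF-κB pathway and RELB that of the non-canonical pathway.

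The 4 sequences are shown because they tell the arms apart, and because the pair of hairpins shares a place in the genome but not a seed. Each is the mature sequence of RefSeq (GRCh38.p14), 5′ to 3′, with the seed (bases 2 to 8) in capitals.
hsa-miR-224-5p: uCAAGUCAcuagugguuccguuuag
hsa-miR-224-3p: aAAAUGGUgcccuagugacuaca
hsa-miR-452-5p: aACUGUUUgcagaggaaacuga
hsa-miR-452-3p: cUCAUCUGcaaagaaguaagug
No 2 of the 4 arms had the same seed. Of the other mature miRNAs of the table with a RefSeq sequence, none carried the seed of miR-224-5p, miR-224-3p or miR-452-3p, and 2 carried that of miR-452-5p, at bases 2 to 8 as well.
hsa-miR-4676-3p: cACUGUUUcaccacuggcucuu
hsa-miR-892c-3p: cACUGUUUccuuucugagugga
MiR-4676-3p, from chromosome 10, had a mean of 2.36 CPM (CPM being the count relative to the library's total, after TMM scaling) over all libraries and was called in none of the knockdown comparisons, and miR-892c-3p had 1 count in all.

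Both hairpins are read from the minus strand of chromosome X, in the same direction as *GABRE*. MIR452 lies at chrX:151959628-151959712 and MIR224 at chrX:151958578-151958658 (GRCh38.p14), with 969 bases between them. In the GENCODE transcript GABRE-201, which has 9 exons, both fall in the intron between exons 6 and 7. MIR452 comes first, 126 bases after exon 6, and MIR224 starts 1180 bases after that exon and ends 2717 bases before exon 7. Both also lie inside an exon of GABRE-209, a transcript annotated as a retained intron, and MIR224 inside an exon of a second one, GABRE-207.

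**Figure D1:**
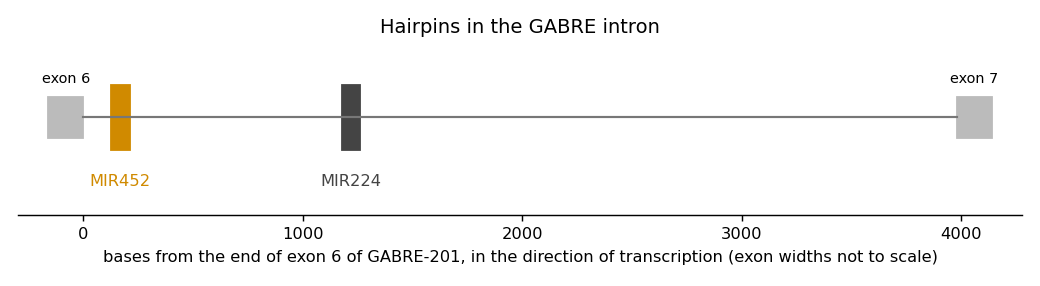
Position of the MIR452 and MIR224 hairpins in the *GABRE* intron, in bases from the end of exon 6 in the direction of transcription; coloured boxes are the hairpins and grey boxes mark the exons, whose widths are not to scale. The hairpins sit in the first part of the intron, 126 and 1180 bases after exon 6.

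Since NF-κB subunits bind a short DNA motif, the κB consensus, the *GABRE* promoter window of RefSeq (250 bases before to 50 bases after the start) was searched for it on both strands. The strict form of the consensus, which opens with GGG, was not found in this window, and 11.3% of the 35116 promoter windows of the table held it. A relaxed form, which opens with GG and includes the strict form, matched once, 113 bases before the start, and 14.02% of windows held it. The match, in capitals, lies in chrX:151974770-151974799 (GRCh38.p14, minus strand), and the same bases match on both strands.
GABRE promoter stretch: tcacgtcgtcGGAGATTTCCatcggggcgg
This is a match of letters only, and no binding was measured in these libraries.

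Each library of adherent cells held 3797175 to 8283549 counts, and each library of spheroids 959141 to 3580931. For a miRNA at 0 the limit was set at 3 counts, worth 0.362 to 0.790 CPM in adherent and 0.838 to 3.13 CPM in spheroid libraries, and such limits cover counting error only. Spheroid shNeg replicate 1 stood apart, with 432 miRNAs detected against 799 to 1172 in the other 23 libraries and 813 to 885 in the other 3 of its group. Results that rest on it are given with and without it. Of 7 epithelial marker miRNAs, among them the miR-200 family, all had counts in every group, summing to 2486 to 16336 CPM per library. The highest group means were those of hsa-miR-200c-3p, at 2034 to 11730 CPM. Others were near 0 in some groups. The family member hsa-miR-429 had 1 count in spheroid shNeg and 1 in spheroid shRELA, and hsa-miR-203a-3p had 1 count in adherent shRELA. Of 17 markers of other cell types, 2 dominated: the liver miRNA hsa-miR-122-5p at group means of 14958 to 24793 CPM and the endothelial miRNA hsa-miR-126-3p at 793 to 6876 CPM. The erythroid hsa-miR-144-3p had 13 counts in all and was at 0 in the 3 spheroid groups, as was the leukocyte hsa-miR-142-5p, with 5 counts. Other erythroid and leukocyte markers were present. The erythroid hsa-miR-451a had 91 counts in adherent shNeg and 0 in spheroid shRELB. The leukocyte hsa-miR-150-5p had group means of 4.06 to 20.3 CPM. In these bulk samples, fewer cells that make a miRNA and less of it per cell cannot be told apart.

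MiR-224-5p was the abundant product of the locus and was lower in every silenced group. In adherent shNeg cells its level was 2427, 2157, 2310 and 2292 CPM in replicates 1 to 4, a mean of 2296 ± 111 (SD, n = 4). It ranked 46th of the 1481 miRNAs with a count in that group. In adherent shRELA cells, the 4 libraries held 264, 306, 247 and 340 CPM (289 ± 42.2), and miR-224-5p ranked 119th of 1444. In adherent shRELB cells they held 760, 672, 607 and 634 CPM (668 ± 66.6), rank 87 of 1481. The 3 adherent groups did not overlap, and shRELB lay between shNeg and shRELA. How often the groups of other miRNAs were apart in this way was not counted. A lack of overlap, here and below, therefore describes only the values named.

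In spheroids, the order of the shRNAs was the same by mean, and the silenced groups overlapped. Spheroid shNeg libraries held 1811, 1377, 2067 and 2116 CPM of miR-224-5p (1843 ± 338, rank 50 of 1133). Spheroid shRELA libraries held 219.8, 212, 212 and 260.3 CPM (226 ± 23.2, rank 120 of 1216). Spheroid shRELB libraries held 190.3, 253, 292 and 469 CPM (300.9 ± 119, rank 104 of 1241). The shRELB libraries had the widest relative spread of the 6 groups (coefficient of variation 39.7%, against 4.82% to 18.3% in the others), and replicate 1 was below every shRELA library while replicate 4 was above them all. These levels rest on 361 to 14639 counts per library.

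MiR-452-5p, the arm whose seed is shared with miR-4676-3p, was 55.3 to 237 times less abundant than miR-224-5p by group mean. Adherent shNeg libraries held 35.1, 25.6, 28.9 and 31.3 CPM, a mean of 30.2 ± 4.02, from 96 to 212 counts, and it ranked 233rd there. Adherent shRELA libraries held 3.63, 2.48, 1.52 and 4.30 CPM (2.98 ± 1.23, 8 to 26 counts). Adherent shRELB libraries held 11.04, 10.3, 15.8 and 11.3 CPM (12.1 ± 2.48, 44 to 92 counts). As for miR-224-5p, the 3 adherent groups did not overlap and shRELB lay in between.

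In spheroid shNeg cells, replicate 1 held 39.6 CPM of miR-452-5p, more than any other library of the series, while replicates 2 to 4 held 8.40, 6.16 and 8.42 CPM. The group mean was therefore 15.6 ± 16.01 with replicate 1 and 7.66 ± 1.302 (SD, n = 3) without it. The same library was within the range of its group for miR-224-5p. Spheroid shRELA libraries held 1.41, 1.58, 0.448 and 0.380 CPM (0.952 ± 0.626), which is 3, 3, 1 and 1 counts, so their level is close to what the depth can show. Spheroid shRELB libraries held 4.74, 2.99, 2.32 and 5.45 CPM (3.88 ± 1.46, 5 to 19 counts). The 3 spheroid groups did not overlap for miR-452-5p, with or without replicate 1 of shNeg, and shRELB again lay between the other groups.

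**Figure D2:**
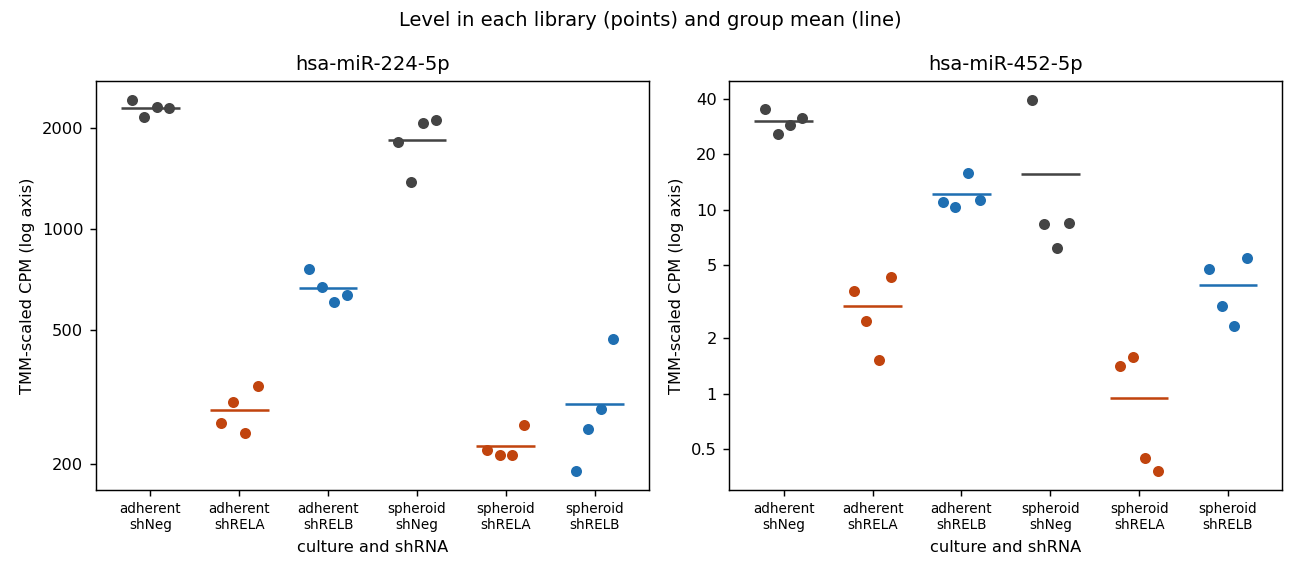
Level of miR-224-5p (left) and miR-452-5p (right) in each of the 24 libraries, in TMM-scaled CPM on log axes; points are libraries in replicate order and lines are group means. Both arms are lower in every silenced group than in shNeg of the same culture, and spheroid shNeg replicate 1 stands at 39.6 CPM of miR-452-5p, above the other 3 libraries of its group.

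The 3p arms were at or near 0. MiR-224-3p had 3 counts in all, 1 each in adherent shNeg replicates 1, 2 and 4, against 48945 counts of miR-224-5p in that group, a share of 0.00613% of the MIR224 counts (exact binomial 95% confidence interval 0.00126% to 0.0179%). In the other 5 groups it was at 0, and the 11316 MIR224 counts of spheroid shNeg, for example, allow a share of up to 0.0265%. MiR-452-3p had 0 of 1117 MIR452 counts in the 24 libraries, which allows a share of up to 0.269%. No change in the use of the arms could therefore be tested, since neither 3p arm passed the minimum of 1 CPM in 4 libraries.

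Silencing *RELA* lowered both 5p arms in both cultures. A miRNA was called where its false discovery rate (FDR) in edgeR was below 0.01 and the fold change above 2 in the fit over all 24 libraries. In adherent culture, miR-224-5p fell 7.94-fold (log2 fold change -2.99, SE 0.21, FDR = 8.18e-13) and miR-452-5p fell 9.96-fold (-3.32, SE 0.44, FDR = 7.76e-07). Both tested members were called, where 3.76% of the 905 miRNAs tested were, and the median log2 fold change of all was 0.09. Only 1.44% of the miRNAs tested had a lower fold change than miR-224-5p and 0.884% a lower one than miR-452-5p.

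In spheroids, miR-224-5p fell 8.15-fold with *RELA* silenced (log2 fold change -3.03, SE 0.22, FDR = 3.44e-13). MiR-452-5p also fell, with a fitted log2 fold change of -4.04 (SE 0.60, FDR = 4.38e-06), a size that depends on how 1 to 3 counts per library are treated. From the summed counts, 8 against 89, its level was 16.4 times lower (95% counting interval 7.96 to 39.1), and without spheroid shNeg replicate 1, from 8 against 35, 8.32 times lower (3.79 to 20.8). In this comparison 15.1% of all miRNAs tested were called, and both tested members were among them with and without that library.

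With *RELB* silenced, miR-224-5p was called in both cultures and miR-452-5p only in spheroids. In adherent culture, miR-224-5p fell 3.44-fold (log2 fold change -1.78, SE 0.20, FDR = 4.56e-08). For miR-452-5p the log2 fold change was -1.32 (SE 0.40, FDR = 0.0230), which missed the threshold although the 4 shRELB libraries, at 10.3 to 15.8 CPM, were all below the 4 shNeg libraries, at 25.6 to 35.1 CPM. The spread of the fit is shared by all groups. Leaving out spheroid shNeg replicate 1, a library of neither group, gave -1.32 with an FDR of 0.000182, and with only the adherent shNeg and shRELB libraries in the fit it was -1.40 with an FDR of 2.06e-06. One of the 2 tested members was called, against 7.07% of all miRNAs tested.

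In spheroids, miR-224-5p fell 6.11-fold with *RELB* silenced (log2 fold change -2.61, SE 0.21, FDR = 1.26e-11). MiR-452-5p was called as well (-1.97, SE 0.48, FDR = 0.00222), and this call rested on spheroid shNeg replicate 1: without it the log2 fold change was -0.94 with an FDR of 0.0922, and without spheroid shRELB replicate 3 it was -1.62 with an FDR of 0.0140. The summed counts gave a level 3.69 times lower (2.53 to 5.47), and 1.88 times lower (1.16 to 3.01) without that library. It was called in the fit with all libraries along with 13.4% of the miRNAs tested. The *RELA* and *RELB* comparisons of a culture share the same shNeg libraries, so their values stand side by side and are not independent of each other.

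**Figure D3:**
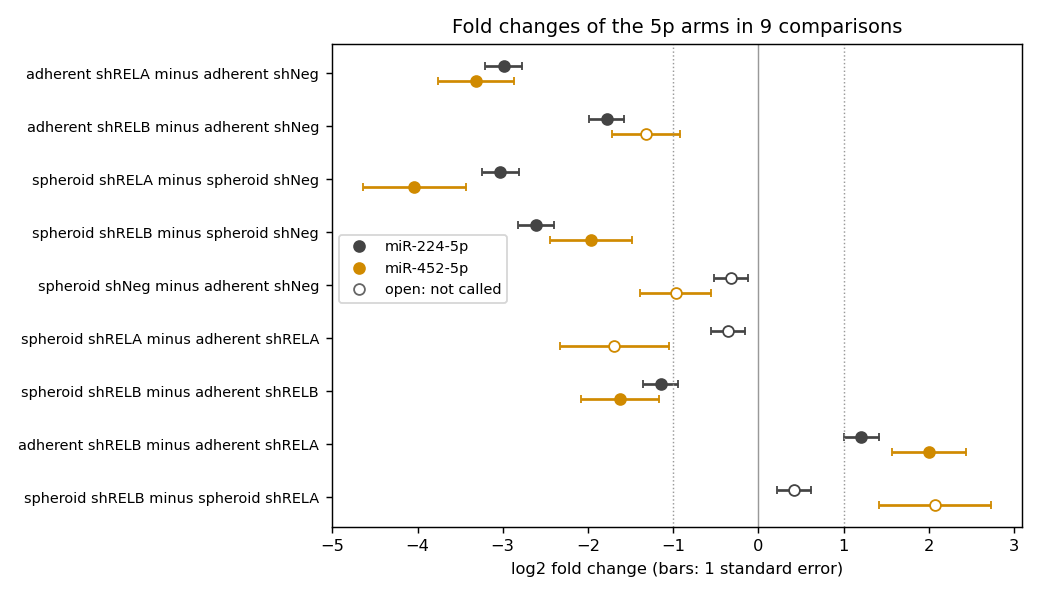
Log2 fold changes of miR-224-5p (grey) and miR-452-5p (yellow) in 9 comparisons; bars are 1 standard error, filled points were called, open points were not, and dotted lines mark a fold change of 2 in either direction. All 4 knockdown comparisons lie below 0 for both arms, from -1.32 to -4.04.

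The subunits were then set against each other. In adherent culture, both arms were higher with *RELB* than with *RELA* silenced, miR-224-5p by a log2 difference of 1.21 (SE 0.20, FDR = 2.26e-05) and miR-452-5p by 1.997 (SE 0.44, FDR = 0.000836), where 10.8% of miRNAs tested were called. In spheroids, neither passed: the difference was 0.42 (SE 0.20, FDR = 0.167) for miR-224-5p and 2.07 (SE 0.66, FDR = 0.0278) for miR-452-5p, with 6.63% of all called. For miR-452-5p the spheroid libraries did not overlap, at 2.32 to 5.45 CPM with shRELB and 0.380 to 1.58 with shRELA. The libraries nearest to each other held 5 and 3 counts, so this gap is close to what the depth can show.

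Between the cultures, both arms were called in shRELB cells, and neither was called in shNeg or shRELA cells. The difference between shRELB and shNeg cells in this change, which is the same quantity as the interaction tested for *RELB*, did not pass. In shNeg cells, the log2 fold change of spheroid against adherent was -0.32 for miR-224-5p (SE 0.20, FDR = 0.170) and -0.97 for miR-452-5p (SE 0.42, FDR = 0.0453), neither called, in a comparison where 42.2% of miRNAs were. Leaving out spheroid shNeg replicate 1 moved the value of miR-452-5p to -1.997 (FDR = 4.49e-06), past the threshold. The summed counts gave a level 2.09 times lower in spheroids (1.67 to 2.64), and 4.11 times lower (2.93 to 5.96) without that library. In the fit of this contrast, the median of all miRNAs tested was -0.26, close to the value of miR-224-5p.

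In shRELA cells, spheroids differed from adherent cells by -0.36 for miR-224-5p (SE 0.20, FDR = 0.141) and -1.69 for miR-452-5p (SE 0.64, FDR = 0.0286), again without a call, with 32.6% of all called. In shRELB cells, miR-224-5p was 2.22-fold lower in spheroids (-1.15, SE 0.20, FDR = 2.43e-05) and miR-452-5p 3.07-fold lower (-1.62, SE 0.46, FDR = 0.00482), and both were called, with 25% of all miRNAs. No library of spheroid shRELB reached the lowest library of adherent shRELB for either arm. These calls were lost without single libraries, for miR-224-5p without spheroid shRELB replicate 1 (-0.98), and for miR-452-5p without adherent shRELB replicate 3 (-1.47) or spheroid shRELB replicate 2 (-1.62) or 3 (-1.47).

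Whether a knockdown acted more strongly in 1 of the cultures was tested directly, as the change in spheroids minus that in adherent cells. For *RELA*, it was -0.04 (SE 0.28, FDR = 0.962) for miR-224-5p and -0.72 (SE 0.77, FDR = 0.561) for miR-452-5p, where 7.62% of miRNAs tested were called. For *RELB*, it was -0.83 (SE 0.28, FDR = 0.0378) for miR-224-5p and -0.65 (SE 0.62, FDR = 0.514) for miR-452-5p, where 8.51% were. None of these 4 values passed the threshold, so neither arm was shown to respond differently in spheroids. Without spheroid shRELB replicate 4, the *RELB* value of miR-224-5p was -1.001 with an FDR of 0.00315, past the threshold. Without spheroid shNeg replicate 1, both values of miR-452-5p changed sign, to 0.30 for *RELA* (FDR = 0.836) and 0.39 for *RELB* (FDR = 0.654).

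Ordered by group mean, miR-224-5p ran from adherent shNeg through spheroid shNeg, adherent shRELB, spheroid shRELB and adherent shRELA to spheroid shRELA. In a 2-sided exact permutation test of log2(CPM + 1) between neighbours in this order, where the smallest p that 4 against 4 libraries allow is 0.0286, the first 3 steps reached it without overlap (p = 0.0714 adjusted over the 10 pairs of both arms). Of these, the step from adherent to spheroid shNeg was not called in the edgeR fit (FDR = 0.170). Its direction depended on filter and scaling. Spheroid shRELB and adherent shRELA did not differ beyond their spread (exact p = 0.971), nor did adherent and spheroid shRELA (exact p = 0.0571). For miR-452-5p the order of the means was the same with all libraries. The step from spheroid shNeg to adherent shRELB rested on spheroid shNeg replicate 1, and on the log2(CPM + 1) scale the difference of these means was -0.03 even with it. Without that library spheroid shNeg averaged 7.66 CPM, below the 12.1 CPM of adherent shRELB, and its 3 other libraries, at 6.16 to 8.42 CPM, lay below the lowest adherent shRELB library, at 10.3 CPM. Adherent and spheroid shNeg (exact p = 0.143), spheroid shNeg and adherent shRELB (exact p = 1), spheroid shRELB and adherent shRELA (exact p = 0.4) and the 2 shRELA groups (exact p = 0.0571) overlapped. With all libraries, only adherent and spheroid shRELB were apart, at the smallest p (exact p = 0.0286, adjusted 0.0714). The overlap of adherent and spheroid shNeg rested on spheroid shNeg replicate 1 as well. The other 3 spheroid shNeg libraries lay below the lowest adherent shNeg library, at 25.6 CPM.

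How far the neighbours moved together was read within each library, where the ratio of the 5p arms does not depend on scaling between libraries. All ratios were taken after adding 0.5 counts to each arm. On this basis, adherent shNeg libraries held 14.5, 11.9, 12.5 and 13.7 counts of miR-452-5p per 1000 counts of miR-224-5p. Adherent shRELA libraries held 14.1, 8.41, 6.56 and 12.9, and adherent shRELB libraries 14.6, 15.5, 26.1 and 17.9. The shNeg libraries were the most even, and all shRELB libraries lay above them, replicates 1 and 2 narrowly and replicate 3 by the most. Spheroid shNeg libraries held 22.1, 6.38, 3.10 and 4.15 per 1000, spheroid shRELA libraries 7.45, 8.65, 3.17 and 2.19, and spheroid shRELB libraries 26.3, 12.5, 8.76 and 11.9. Here the spread within a group was wide, with replicate 1 of shNeg far above its group. The spheroid shRELA values rest on 3, 3, 1 and 1 counts of miR-452-5p, and the added 0.5 counts raise them the most.

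As log2 ratios, the change with *RELA* silenced was -0.39 in adherent culture (SE 0.27, exact p = 0.286) and -0.50 in spheroids (SE 0.79, exact p = 0.571). With *RELB* silenced it was 0.46 in adherent culture (SE 0.20, exact p = 0.0286, no overlap) and 1.06 in spheroids (SE 0.71, exact p = 0.171). Spheroid against adherent culture gave -1.01 in shNeg (SE 0.63, exact p = 0.143), -1.12 in shRELA (SE 0.54, exact p = 0.143) and -0.41 in shRELB (SE 0.38, exact p = 0.343). Adjusted over these 7 tests, the lowest p was 0.2, and no change passed the threshold of 0.05. Since 0.0286, the smallest p that 4 against 4 libraries allow, adjusts to 0.2 when 1 of 7 tests reaches it, no single shift could have passed, and these tests do not show that the balance was kept. In adherent cells, the shift in balance was 1.31-fold with *RELA* and 1.37-fold with *RELB* silenced, while the levels themselves moved 2.49-fold to 9.96-fold.

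The balance in spheroids turned on the library that stood apart. Without spheroid shNeg replicate 1, the log2 ratio changed by 0.08 with *RELA* silenced and by 1.65 with *RELB* silenced, and spheroid shNeg lay 1.60 below adherent shNeg. In these latter comparisons the libraries that were left no longer overlapped. MiR-452-5p made up 0.780% of the members' counts in spheroid shNeg (exact 95% confidence interval 0.627% to 0.959%), 2.14% (1.61% to 2.78%) in replicate 1 alone and 0.394% (0.275% to 0.548%) in replicates 2 to 4. In adherent shNeg it made up 1.31% (1.21% to 1.42%). These intervals cover counting error only, not the spread between libraries. Single libraries ranged from 0.297% to 2.14% in spheroid shNeg, wider than its pooled interval, and from 1.17% to 1.43% in adherent shNeg.

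**Figure D4:**
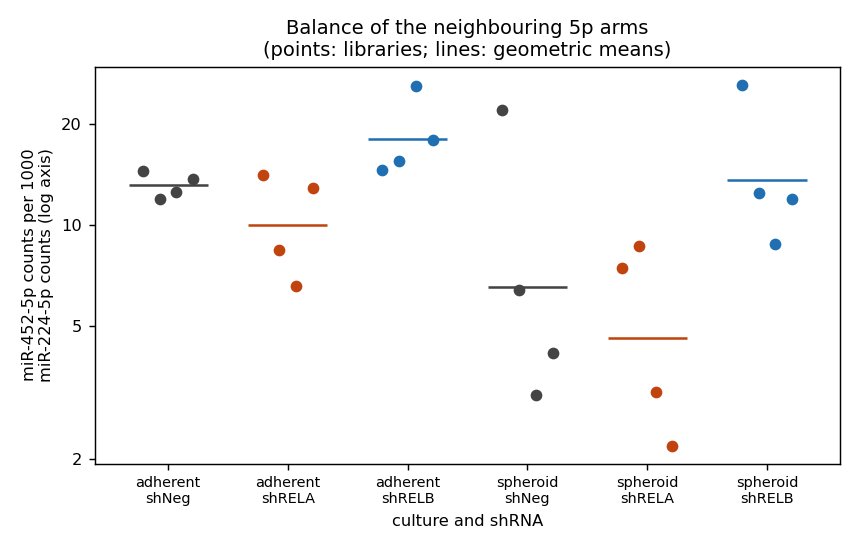
Counts of miR-452-5p per 1000 counts of miR-224-5p in each library, after adding 0.5 counts to each arm, on a log axis. Points are libraries in replicate order and lines are geometric means of the groups. The adherent shNeg libraries sit between 11.9 and 14.5, while the spheroid shNeg libraries range from 3.10 to 22.1.

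Of the tested miRNAs whose mean was 10 CPM or more, 334 were compared with each 5p arm. The nearest in pattern to miR-224-5p over the 6 groups was miR-452-5p, and the nearest to miR-452-5p was miR-224-5p. Likeness was the root-mean-square difference between the centred group means of log2(CPM + 1), and it was 0.52 for this pair, against a median of 1.61 for all miRNAs compared with miR-224-5p and 1.54 for those compared with miR-452-5p. Next to miR-224-5p came miR-205-5p (0.85), an epithelial marker, then miR-378c (0.92), miR-642a-5p (0.94) and miR-199b-5p (0.94). Next to miR-452-5p came miR-143-3p (0.67) and miR-145-5p (0.71), which share a hairpin cluster and are markers of fibroblasts and smooth muscle, then miR-181a-2-3p (0.84) and miR-199b-5p (0.91). Without spheroid shNeg replicate 1, miR-452-5p was still the nearest to miR-224-5p, at 0.68, while miR-224-5p was the 4th nearest to miR-452-5p, after miR-145-5p, miR-143-3p and miR-181a-2-3p. The miRNAs compared were still those chosen with all libraries, and miR-452-5p reached a mean of 10 CPM only with that library counted.

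The fibroblast and smooth muscle marker nearest to miR-452-5p was called with *RELA* but not with *RELB* silenced. With *RELA* silenced, hsa-miR-143-3p fell by 2.58 on the log2 scale in adherent culture (SE 0.26, FDR = 2.44e-09) and by 2.48 in spheroids (SE 0.30, FDR = 1.11e-07), from means of 156 and 38.0 CPM with shNeg. Its log2 fold change with *RELB* silenced was -0.37 in adherent culture (FDR = 0.371) and 0.48 in spheroids (FDR = 0.173), neither called. The other fibroblast markers of the list did not all follow it. In adherent shNeg, shRELA and shRELB, miR-145-5p had means of 89.9, 11.1 and 59.6 CPM. MiR-199a-3p had 104, 58.3 and 158 CPM there, and miR-214-3p 0.499, 0.515 and 2.64 CPM. In the same groups of spheroids, miR-145-5p had 22.3, 9.85 and 33.6 CPM. MiR-199a-3p had 65.6, 66.5 and 154 CPM in them, and miR-214-3p 4.66, 4.80 and 8.35 CPM. The epithelial marker nearest to miR-224-5p, hsa-miR-205-5p, fell by 1.49 on the log2 scale with *RELA* silenced in adherent culture (FDR = 1.13e-07), and its log2 fold change in spheroids, -0.995 (FDR = 5.51e-05), was just short of the 2-fold limit. With *RELB* silenced its means were lower too, at 670 CPM in adherent culture and 497 CPM in spheroids, against 1622 and 1973 CPM with shNeg. The epithelial list as a whole did not go 1 way: of its 7 members, all tested, 0 rose and 1 fell in adherent shRELA, 1 rose and 1 fell in adherent shRELB, 1 rose and 0 fell in spheroid shRELA, and 3 rose and 1 fell in spheroid shRELB. In the same comparisons 3.76%, 7.07%, 15.1% and 13.4% of all miRNAs tested were called. The summed level of the 7 was 4853 to 5073 CPM in adherent shNeg, 2486 to 3449 in adherent shRELA and 7799 to 9638 in adherent shRELB. In spheroids it was 3238 to 4630 CPM with shNeg, 4489 to 7999.9 with shRELA and 7911 to 16336 with shRELB, so the shRELB libraries did not overlap shNeg in either culture. The largest part of it was miR-200c-3p, with means of 2034, 5550 and 11730 CPM in spheroid shNeg, shRELA and shRELB.

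Over the whole list of markers of other cells, 14 of 17 were tested, and with *RELA* silenced 0 rose and 2 fell in adherent culture and 0 rose and 1 fell in spheroids. With *RELB* silenced, 0 rose and 4 fell in adherent culture and 1 rose and 0 fell in spheroids. The shares of all miRNAs called in these 4 comparisons were 3.76%, 15.1%, 7.07% and 13.4%. The summed level of the list was 26038 to 28925 CPM in adherent shNeg, 25733 to 38668 in adherent shRELA and 21093 to 24681 in adherent shRELB. In spheroids it was 17273 to 24877 CPM with shNeg, 15807 to 17321 with shRELA and 14523 to 22699 with shRELB. Whether a change in cell makeup had a part in the results was not tested.

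**Figure D5:**
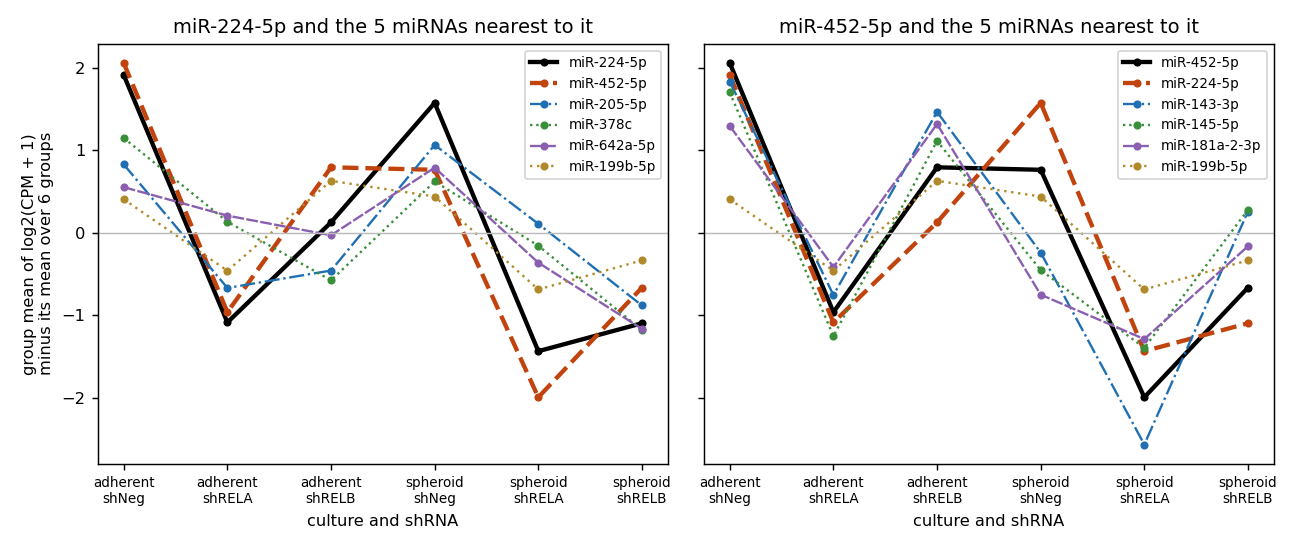
Group means of log2(CPM + 1), each centred on its own mean over the 6 groups, for miR-224-5p (left) and miR-452-5p (right) with the 5 miRNAs nearest to each; lines join the groups only to guide the eye. The pair of *GABRE* arms is the closest match in both panels, with a root-mean-square difference of 0.52.

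Other miRNAs of this stretch of chromosome X were taken within 5 Mb of MIR224. Of 32 such mature miRNAs, 13 were tested. With *RELA* silenced, 0 rose and 1 fell in adherent culture, and 0 rose and 1 fell in spheroids, where the list's median log2 fold changes were -0.32 and 0.81, against 0.09 and 0.09 for all miRNAs tested. With *RELB* silenced, 0 rose and 2 fell in adherent culture and 0 rose and 4 fell in spheroids, with medians of -0.78 and -0.91 against 0.04 and 0.16. Each median of the list was the value of a single miRNA that was not called. With *RELB* silenced it was miR-514a-3p in adherent culture (FDR = 0.799), from 4 counts in shNeg and 2 in shRELB. In spheroids it was miR-508-3p (FDR = 0.204), at 7.07 CPM in shNeg and 3.74 CPM in shRELB. Over all miRNAs tested, 3.76% and 15.1% were called with *RELA* and 7.07% and 13.4% with *RELB* silenced, in adherent culture and spheroids. In adherent culture the most abundant neighbours were miR-105-5p and miR-767-5p, whose hairpins lie in *GABRA3*, which encodes another GABA-A receptor subunit. In spheroids, miR-509-3p had a higher mean than miR-105-5p with shNeg (174 against 155 CPM) and shRELB (47.5 against 38.4 CPM), and a lower one with shRELA. It was called lower in adherent shRELA (log2 fold change -1.15, FDR = 0.00247) and spheroid shRELB (-1.87, FDR = 2.53e-08). In adherent shRELB (0.35, FDR = 0.388) and spheroid shRELA (0.08, FDR = 0.803) it was not called.

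The level of miR-767-5p was 363 ± 25.2 CPM in adherent shNeg and 322 ± 13.0 in adherent shRELA (log2 fold change -0.18, FDR = 0.627), and 585 ± 44.7 and 573 ± 72.8 CPM in the same groups of spheroids (-0.03, FDR = 0.908). With *RELB* silenced instead, it fell by 1.51 on the log2 scale in adherent culture (FDR = 9.68e-09) and fell by 2.25 in spheroids (FDR = 1.11e-12). MiR-105-5p had log2 fold changes of -0.27 (FDR = 0.472) and 0.44 (FDR = 0.0798) with *RELA* silenced, and fell by 1.68 (FDR = 3.78e-08) and fell by 2.02 (FDR = 7.79e-10) on the log2 scale with *RELB* silenced. Of the knockdowns, both 5p arms of *GABRA3* were thus called with *RELB* and not with *RELA*. The 3p arms were not called with *RELB* silenced, with FDRs of 0.0172 and 0.0345 for miR-105-3p and 0.0330 and 0.0765 for miR-767-3p in adherent culture and spheroids. Whether these arms differ from the *GABRE* arms was not tested.

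Of 5 miRNAs known for NF-κB sites in their genes, miR-155-5p, an immune and inflammation miRNA, rose in all 4 knockdown comparisons, by 2.34 on the log2 scale in adherent shRELA (FDR = 9.76e-07) and 3.84 in spheroid shRELB (FDR = 9.14e-10) at the ends of the range. MiR-146b-5p, one of a pair that curbs NF-κB signalling, fell by 1.23 on the log2 scale in adherent shRELA (FDR = 5.77e-05) and rose by 1.66 in spheroid shRELB (FDR = 2.73e-07). MiR-146a-5p rose by 1.86 in spheroid shRELB (FDR = 3.80e-10). Neither arm of miR-21 was called in any of the 4. In all, 1 of 5 rose and 1 fell in adherent shRELA, 1 rose in adherent shRELB, 1 rose in spheroid shRELA and 3 rose in spheroid shRELB, where 3.76%, 7.07%, 15.1% and 13.4% of all miRNAs tested were called. No member of this list fell in both cultures with *RELA* silenced, as miR-224-5p and miR-452-5p did.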

How the data were processed

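OV90 small RNA libraries were grouped by their titles and labels into 6 groups of 4 replicates. The authors trimmed reads with Cutadapt and assigned them to miRBase with miRDeep2. The table deposited by the authors holds unscaled estimated counts of mature miRNAs, although it is titled as CPM. Among non-zero values, 3.04% (84 miRNAs, no member) had decimals and were rounded. Library totals ran from 959141 to 8283549. The library kit adds UMIs, and whether reads were collapsed by UMI is not given in the sources used here.

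The 905 miRNAs that reached 1 CPM in 4 or more libraries were tested with edgeR's quasi-likelihood test (edgeR 4.0.16, limma 3.58.1, DESeq2 1.42.0, R 4.3.3) after TMM scaling, with the 6 groups as the only term. FDRs are Benjamini-Hochberg values over all 905, and calls were made at an FDR below 0.01 with a change of over 2-fold. Within-library ratios were taken after adding 0.5 counts and tested by exact permutation (scipy 1.17.1). The tests for miR-224-3p and miR-452-3p that were planned could not be run for lack of counts, which left 7 ratio tests and 10 neighbouring pairs. Share intervals are exact binomial and ratio intervals of summed counts exact conditional ones. Both kinds cover counting error only, not the spread between libraries. RefSeq sequences matched 2367 of the 2656 miRNAs by name.

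The miRNAs named were the members, the 5 nearest in pattern to each 5p arm, miR-105-5p and miR-767-5p as neighbours, miRNAs with NF-κB sites, those that share a seed and the marker lists. hsa-miR-122-5p, hsa-miR-126-3p, the markers at or near 0, hsa-miR-451a, hsa-miR-150-5p, hsa-miR-199a-3p, hsa-miR-214-3p and hsa-miR-509-3p were singled out after their values were seen. The members and lists were chosen with earlier results of these data known. Alternatives were other filters, scalings, tests, thresholds and ratio pseudocounts, summed counts, only the groups compared, the replicate block, and each library left out in turn. The tests were tested on simulated data.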

Additional observations from a re-analysis of the deposited data

Results flagged for a closer look

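In 2 of 18 sets of 4 libraries, made of the levels of both 5p arms and their ratio in each group, 1 library lay far from the other 3 by Dixon's criterion of the gap over the range, which chance alone meets in about 1 in 20 sets. MiR-452-5p stood at 39.6 CPM in spheroid shNeg replicate 1, with a gap of 0.932 of the range, against 6.16 to 8.42 CPM in the other 3. MiR-224-5p stood at 260.3 CPM in spheroid shRELA replicate 4, with a gap of 0.834 of the range, against 212 to 219.8 CPM in the other 3.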

How the results depend on the processing

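Under the 8 alternatives of filter, scaling, test, block and samples in the fit, 161 of 176 fold changes of the 5p arms kept direction and side of the threshold; the causes of the others were not tested. On the log2 scale, miR-452-5p with *RELB* silenced in adherent culture was called with no filter (-1.35), with DESeq2 (-1.31), with only the groups compared (-1.40) and at an FDR below 0.05 (-1.32), and ran from -1.48 to -1.24 without single libraries. It was called without any 1 of the 4 spheroid shNeg libraries, spheroid shRELA replicate 4 or spheroid shRELB replicate 4. In spheroids it lost its call with limma (-1.43) and with only the groups compared (-2.08), and ran from -2.32 to -0.94 without single libraries. For spheroid against adherent shNeg, miR-224-5p turned to 0.066 with a mean of at least 10 CPM and to 0.12 with library totals, and miR-452-5p was called with no filter (-1.19) and limma (-1.29) and ran from -1.997 to -0.84. Spheroid against adherent shRELA was called for miR-452-5p at an FDR below 0.05 (-1.69) and without spheroid shNeg replicate 1 (range -2.05 to -1.47). Spheroid against adherent shRELB lost its call for miR-224-5p with only the groups compared (-0.99), with ranges of -1.51 to -0.98 and -1.95 to -1.47 for the 2 arms. shRELB against shRELA in spheroids was called for miR-452-5p at an FDR below 0.05 (2.07) and without spheroid shNeg replicate 1 (range 1.74 to 2.39). The difference of the *RELA* change between cultures turned for miR-224-5p with no filter (0.0401) and only the groups compared (0.0496; range -0.12 to 0.14) and for miR-452-5p with limma (0.26; range -1.05 to 0.30, the latter without spheroid shNeg replicate 1). That of *RELB* was called for miR-224-5p with a mean of at least 10 CPM (-1.12) and with library totals (-1.23; range -1.001 to -0.65), and ran from -0.87 to 0.39 for miR-452-5p. The log2 ratio of the arms with *RELA* silenced in spheroids ran from -0.86 to 0.082. Chosen after seeing the data were the summed counts, the share of miR-452-5p and the likeness without spheroid shNeg replicate 1.

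Same-numbered libraries did not deviate together (correlations of -0.496 to 0.373), so numbers were taken as names only. With the replicate block, no call of a member changed (miR-452-5p -1.27 and -1.81 with *RELB* silenced in adherent culture and spheroids), and the calls of the 4 knockdown comparisons went from 34, 64, 137 and 121 to 31, 62, 124 and 108. With only the groups compared these were 54, 117, 66 and 41, and 150 in place of 98 for adherent shRELB against shRELA. With a mean of at least 10 CPM, the culture comparisons had 204, 160 and 132 calls in place of 382, 295 and 226, and shRELB against shRELA in spheroids had 98 in place of 60 without spheroid shNeg replicate 1. Scaling by library totals moved the median of all miRNAs for spheroid against adherent shNeg from -0.26 to 0.17, and the share of calls that were higher from 29.4%, 50%, 49.6% and 54.5% to 17.6%, 62.2%, 19.1% and 34.1% in the 4 knockdown comparisons. The members' direction in those 4 held under every scaling. Depth limits miR-452-5p in spheroid shRELA, at 1 to 3 counts per library, and both 3p arms.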
